A study of Mus musculus with 6 samples.

Results

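The inducible heat shock chaperones Hspa1a, Hspa1b, Dnajb1, Hsph1, Hspb1, Hsp90aa1 and Bag3 were examined in freshly sorted muscle stem cells (MuSCs), together with the constitutive HSP70 gene Hspa8 and the heat shock factors Hsf1 and Hsf2. These 10 of 22706 genes in the table were taken by gene symbol, and all 10 were found and passed the minimum mean for testing. They had been chosen from their measured levels in these same 6 libraries, among which the inducible genes were low in mdx, so their levels and differences are given as a description and without p-values, and counts of those that met the criteria applied to all genes are no evidence about them. The set holds HSP70 (Hspa1a, Hspa1b), HSP40 (Dnajb1) and HSP110 (Hsph1) chaperones, and also a small heat shock protein (Hspb1), an HSP90 (Hsp90aa1) and a co-chaperone (Bag3).

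Total RNA of MuSCs was sequenced after removal of ribosomal RNA in 3 groups of 2 libraries: control (wild type), mdx and Sirt6mKO/mdx. All mice were C57BL/6 per the labels. Mdx, a mouse model of Duchenne muscular dystrophy, has a mutated dystrophin gene, and the methods give the C57BL/10ScSn-Dmdmdx/J line as its origin. Sirt6mKO/mdx mice carry the same mutation and, in addition, floxed Sirt6 alleles cut by a constitutively active Cre under the Pax7 promoter (Pax7-ICN), which acts in the whole skeletal muscle lineage and therefore deletes the SIRT6 deacetylase in muscle fibres as well as in MuSCs. The labels give neither age nor sex for these libraries, and the methods name male mice. Cells were released from minced muscle with Dispase and collagenase, depleted of Sca1+, CD45+ and CD31+ cells and sorted by Integrin-a7 and CD34 or by a GFP or YFP reporter. The methods tie the YFP gate to mice with Pax7-ICN Cre and a YFP reporter, and the paper names both strains in the breeding of Sirt6mKO mice. Which gate served each group of these libraries is not stated. A difference in gate thus cannot be told apart from genotype, while all groups share enzymatic dissociation.

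HSP70 chaperones bind unfolded stretches of other proteins and release them in cycles of ATP hydrolysis. HSP40 proteins deliver the client and start hydrolysis, HSP110 proteins and BAG proteins exchange the nucleotide, and HSP90 takes over clients at a later stage of folding. Under proteotoxic stress HSF1 forms trimers, binds heat shock elements, which are inverted repeats of the unit GAA, and raises transcription of these genes within minutes. In skeletal muscle, BAG3 with HSP70 and small heat shock proteins is known for clearing damaged proteins of the contractile apparatus.

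The 250 bases before the annotated start are shown for 5 inducible genes, since the heat shock element is what HSF1 binds at these genes. They are RefSeq sequences on GRCm38.p6, 5′ to 3′ on the gene's strand. Capitals mark a pair of GAA units head to head or tail to tail, GAANNTTC or TTCNNGAA, each of which reads the same on both strands. The windows lie at chr17:34972157-34972406 (Hspa1a), chr17:34959239-34959488 (Hspa1b), chr5:149636337-149636586 (Hsph1), chr5:135887669-135887918 (Hspb1) and chr8:83607925-83608174 (Dnajb1), with Hspb1 and Dnajb1 on the plus strand and the other genes on the minus strand.
Hspa1a: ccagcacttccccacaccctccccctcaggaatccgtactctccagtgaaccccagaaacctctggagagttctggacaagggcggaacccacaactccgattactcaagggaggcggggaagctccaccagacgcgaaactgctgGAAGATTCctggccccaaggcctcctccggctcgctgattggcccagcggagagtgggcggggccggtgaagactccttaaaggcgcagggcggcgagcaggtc
Hspa1b: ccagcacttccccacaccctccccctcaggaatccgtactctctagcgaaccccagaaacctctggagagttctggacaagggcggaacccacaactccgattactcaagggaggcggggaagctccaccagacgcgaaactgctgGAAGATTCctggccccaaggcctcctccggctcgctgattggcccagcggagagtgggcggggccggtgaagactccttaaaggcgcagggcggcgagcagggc
Hsph1: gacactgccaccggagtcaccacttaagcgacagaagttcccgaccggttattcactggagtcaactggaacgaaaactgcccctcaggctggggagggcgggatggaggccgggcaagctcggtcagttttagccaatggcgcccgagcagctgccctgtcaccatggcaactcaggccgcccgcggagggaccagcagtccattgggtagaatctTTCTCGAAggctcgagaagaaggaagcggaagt
Hspb1: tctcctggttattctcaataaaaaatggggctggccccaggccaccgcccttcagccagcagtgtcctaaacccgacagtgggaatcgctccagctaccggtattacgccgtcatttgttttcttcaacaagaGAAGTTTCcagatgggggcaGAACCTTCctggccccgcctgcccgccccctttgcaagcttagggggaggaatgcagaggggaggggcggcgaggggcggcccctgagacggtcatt
Dnajb1: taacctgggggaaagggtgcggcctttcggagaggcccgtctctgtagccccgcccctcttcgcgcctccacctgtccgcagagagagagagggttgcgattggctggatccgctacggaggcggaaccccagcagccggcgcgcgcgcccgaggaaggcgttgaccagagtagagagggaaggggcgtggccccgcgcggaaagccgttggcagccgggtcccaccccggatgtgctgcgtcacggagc

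The windows of Hspa1a and Hspa1b were 98.8% identical, with 3 of 250 bases different, and both held the pair of units starting 104 bases before the start. The pair of Hsph1 started at 33 bases, and those of Hspb1 at 117 and 97 bases, before the start. Of the 7 inducible genes, 6 had a window in the table used, and 4 of these 6 held a pair, against 12.8% of all 32851 promoters and 13.8% of the 87 promoters of other chaperone genes. None of these windows held 3 such units in a row with the same spacing of 2 bases, searched on both strands, which 0.466% of all promoters and 2.3% of those of other chaperones did. Dnajb1, Bag3 and Hsf2 held no pair in this window, which says only that these letters are not in it. A match is a description of the sequence and not a measured binding site.

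Normalized read counts, which are read counts divided by a size factor of the library and rounded by the authors, came from between 4397632 and 9743941 approximate reads per library, with 18983 to 20614 genes above 0. The 9 MuSC markers were present in every group and summed to 17453 to 23249 per library, but single markers went opposite ways. Sdc4 was at 7692 and 6224 in controls, 1100 and 1049 in mdx, then 2753 and 2822 in Sirt6mKO/mdx. Vcam1 was at 3730 and 3697, 7031 and 5753, then 2413 and 4302. By the criteria given below, 1 of the 9 was lower and 0 higher in mdx than in control, against 7.34% and 6.89% of all genes. In Sirt6mKO/mdx 1 was higher than in mdx and 1 lower than in control, against 5.62% and 2.68%. The gene deleted in Sirt6mKO/mdx, Sirt6, was at 41 and 32 in controls, 33 and 40 in mdx, then 37 and 30 in Sirt6mKO/mdx; the deletion removes internal exons only and the values are per gene, so they do not check this label. Xist was at 16772 and 12950 in control, against 7 to 34 in the other 4 libraries, and the Y-linked Ddx3y at 3 and 8, against 1024 to 1767. Both control libraries thus go against the male mice of the methods. This pattern goes with the control group, so in comparisons with control it cannot be told apart from genotype, while mdx and Sirt6mKO/mdx share it. Protein-coding genes took 63.36% and 78.75% of the summed values in controls, 62.11% and 65.85% in mdx, then 39.69% and 42.83% in Sirt6mKO/mdx. In bulk samples a change in the RNA of a cell and a change in the share of cells that hold it cannot be told apart.

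The inducible chaperones were among the most abundant mRNAs of control MuSCs, were several-fold lower in mdx, and stood between mdx and control in Sirt6mKO/mdx. Together the 7 genes took 4.02% and 4.85% of all protein-coding values in controls, 0.51% and 0.702% in mdx, then 3.06% and 3.07% in Sirt6mKO/mdx. The groups did not overlap. Of all values, noncoding RNA included, they took 2.55% and 3.82% in controls, 0.317% and 0.462% in mdx, then 1.22% and 1.32% in Sirt6mKO/mdx, so that this group lay further below control by this share. Both shares are set within each library and do not depend on its size factor. Their summed normalized read counts were 169160 and 212352 in controls, 20209 and 25931 in mdx, then 117035 and 116984 in Sirt6mKO/mdx.

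Ranked by value per kb of exon among 16679 protein-coding genes, Hspa1b was at rank 1 in both control libraries, 23 and 7 in mdx, then 2 and 1 in Sirt6mKO/mdx. Dnajb1 was at ranks 6 and 3 in controls, 454 and 180 in mdx, then 9 and 9 in Sirt6mKO/mdx. The lowest rank of an inducible gene in control was that of Bag3, at 55 and 39, and it was 1503 and 588 in mdx. Hsf1 and Hsf2 encode the transcription factors and ranked between 4537 and 9453 in all libraries.

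**Figure D1:**
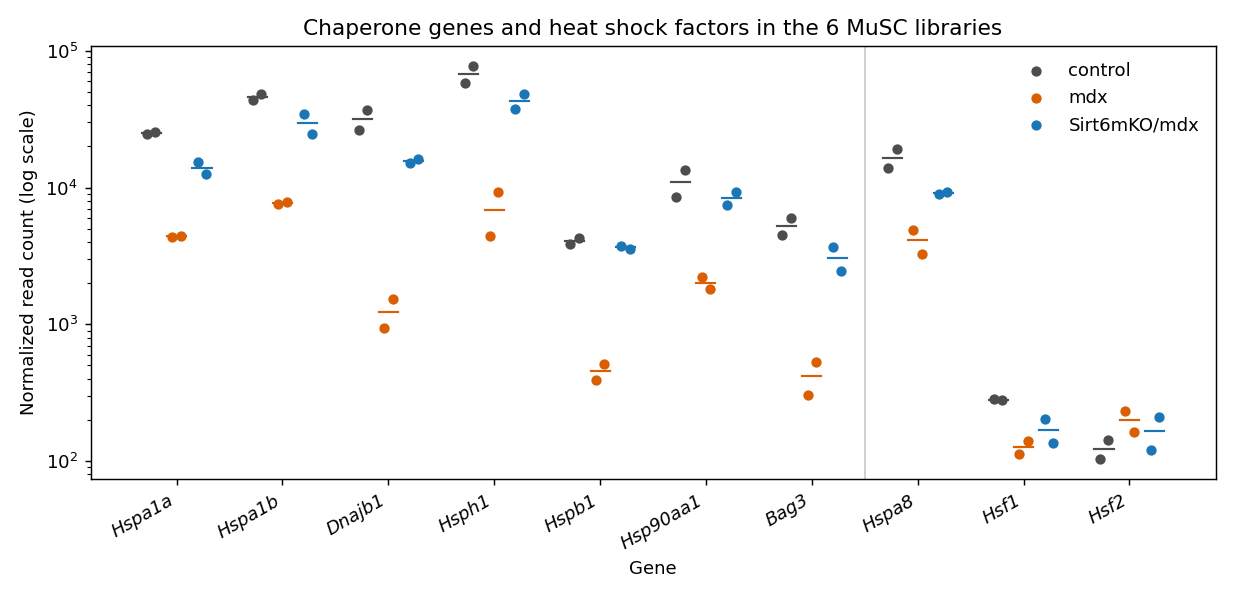
Normalized read counts (log axis) of the 7 inducible chaperones, left of the line, and of Hspa8, Hsf1 and Hsf2, right of it, with 1 point per library and a bar at the mean of each group. The mdx points of every inducible gene and of Hspa8 lie under those of the other groups, while Hsf2 lies between 103 and 234 in all 6 libraries, with both mdx libraries above both controls and Sirt6mKO/mdx overlapping either group.

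Hspa1a and Hspa1b encode nearly the same inducible HSP70 protein and lie in tandem on chromosome 17 (GRCm38, 34969199 to 34972154 and 34956436 to 34959238, minus strand). Hspa1a was at 24741 and 25674 in controls, 4332 and 4445 in mdx, then 15442 and 12574 in Sirt6mKO/mdx. Hspa1b was at 43503 and 48342 in controls, 7574 and 7797 in mdx, then 34311 and 24518 in Sirt6mKO/mdx. For both genes the mdx libraries were the lowest and the control libraries the highest, with no overlap of the groups. Hspa1a was 5.74-fold and Hspa1b 5.98-fold lower in mdx than in control, with log2 fold changes of -2.52 (SE 0.42) and -2.58 (SE 0.55). Against mdx, the log2 fold changes in Sirt6mKO/mdx were 1.67 and 1.92, and the levels reached 55.6% and 64.1% of control. The ratio of Hspa1b to Hspa1a was 1.75 to 1.88 in the control and mdx libraries and 2.22 and 1.95 in Sirt6mKO/mdx. Of the stretches of 100 bases in their transcripts, 56.5% (Hspa1a) and 49.9% (Hspa1b) occur in another gene as well, mostly in each other. Reads that fit several places were left out by the authors, so both levels and their ratio are uncertain. Hspa1a also shares 564 exonic bases with Gm20481 on the opposite strand, which was not analysed here, and the use of strand in counting is not given in the sources used here.

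Dnajb1, on chromosome 8 (83608175 to 83611902), encodes the inducible HSP40 that starts the ATPase cycle of HSP70, and it had the largest fold range over the 6 libraries among the 10 genes. It was at 26187 and 36763 in controls, 942 and 1533 in mdx, then 15031 and 16194 in Sirt6mKO/mdx. It was 25.4-fold lower in mdx than in control, a log2 fold change of -4.69 (SE 0.40), and 12.6-fold higher in Sirt6mKO/mdx than in mdx, a log2 fold change of 3.70. The Sirt6mKO/mdx level was 49.6% of control, the lowest such percentage among the 7 inducible genes. None of its transcript is shared with another gene at a length of 100 bases.

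Hsph1, on chromosome 5 (149614287 to 149636376), encodes the HSP110 that exchanges the nucleotide of HSP70. It had the highest normalized read count of the set in every library but mdx replicate 1, at 57857 and 77910 in controls, 4435 and 9300 in mdx, then 37345 and 48416 in Sirt6mKO/mdx. Per kb of exon it was below Hspa1b, since its exons span 7.27 kb against 2.8 kb. Its mdx libraries differed from each other more than those of the other inducible genes, and the log2 fold change against control of -3.39 (SE 0.63) was -2.85 if mdx replicate 1 was left out and -3.92 if mdx replicate 2 was. In Sirt6mKO/mdx it was 6.24-fold higher than in mdx and at 63.2% of control.

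Bag3, on chromosome 7 (128523583 to 128546977), encodes the co-chaperone that links HSP70 to small heat shock proteins and autophagy. It was at 4521 and 5963 in controls, 302 and 532 in mdx, then 3704 and 2435 in Sirt6mKO/mdx, again without overlap of the groups. Its log2 fold change was -3.69 (SE 0.32) in mdx against control and 2.90 in Sirt6mKO/mdx against mdx. Bag3 was thus 12.6-fold lower in mdx, second to Dnajb1.

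Hspb1, on chromosome 5 (135887919 to 135889563), encodes a small heat shock protein that holds unfolded proteins without using ATP. It was at 3878 and 4257 in controls, 394 and 513 in mdx, then 3759 and 3563 in Sirt6mKO/mdx. It was 8.97-fold lower in mdx than in control, with a log2 fold change of -3.17 (SE 0.26), and 8.07-fold higher in Sirt6mKO/mdx than in mdx. At 90.0% of control, Sirt6mKO/mdx came nearest to control for this gene. Hspb1 shares 42.7% of its stretches of 100 bases with other genes.

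Hsp90aa1, on chromosome 12 (110690605 to 110702728), encodes the inducible cytosolic HSP90. It was at 8473 and 13443 in controls, 2230 and 1811 in mdx, then 7443 and 9284 in Sirt6mKO/mdx, so the control and Sirt6mKO/mdx libraries overlapped. The log2 fold change was -2.41 (SE 0.36) in mdx against control and 2.05 in Sirt6mKO/mdx against mdx. Its constitutive relative Hsp90ab1, a gene outside the set, was at 16122 and 23148, 7394 and 6467, and 11024 and 9993. Per kb of exon, the ratio of Hsp90aa1 to Hsp90ab1 was 0.401 and 0.443 in controls, 0.23 and 0.214 in mdx, then 0.515 and 0.709 in Sirt6mKO/mdx. The inducible gene therefore took the smallest part of the pair in mdx and the largest in Sirt6mKO/mdx, although 47.5% of the stretches of 100 bases of Hsp90aa1 are shared with other genes.

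Hspa8, on chromosome 9 (40800984 to 40805200), encodes the HSP70 that cells make without stress, and it was also lower in mdx. It was at 13816 and 18991 in controls, 4919 and 3292 in mdx, then 8961 and 9288 in Sirt6mKO/mdx. Its log2 fold change of -2.01 (SE 0.40) in mdx against control was smaller in size than that of any of the 7 inducible genes, which ran from -4.69 to -2.41. Against mdx, Sirt6mKO/mdx was 2.22-fold higher, and against control it was at 55.6%. Hspa8 shares exonic bases with the small nucleolar RNA genes Snord14c, Snord14d and Snord14e, which were not analysed here, and 32.1% of its stretches of 100 bases with other genes.

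Relative to Hspa8, the inducible HSP70 genes came close to each other between groups. The summed value per kb of Hspa1a and Hspa1b was 7.43 and 5.87 times that of Hspa8 in control, 3.64 and 5.59 times in mdx, and 8.37 and 6.01 times in Sirt6mKO/mdx. The higher mdx library and the lower control library lay 0.28 apart, while the libraries within a group lay at least 1.56 apart. With 2 libraries per group, an exact permutation test of such a ratio cannot give a two-sided p below 0.333, so none was run.

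**Figure D2:**
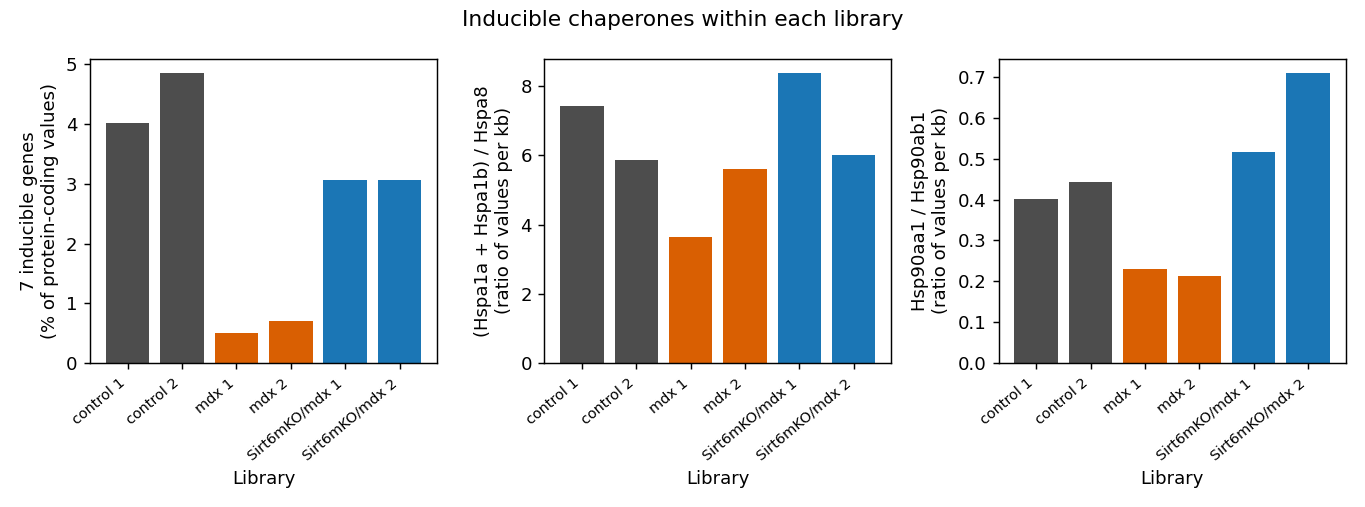
Bars, from 0, give for each of the 6 libraries the percentage of protein-coding values in the 7 inducible chaperones, the ratio of Hspa1a plus Hspa1b to Hspa8, and the ratio of Hsp90aa1 to Hsp90ab1, the ratios from values per kb of exon. The percentage is 0.51 and 0.702 in mdx and at least 3.06 in the other libraries, while the ratio to Hspa8 in mdx runs up to 5.59, close to the 5.87 of control replicate 2.

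Hsf1, on chromosome 15 (76477445 to 76500972), was at 284 and 278 in controls, 112 and 141 in mdx, then 203 and 136 in Sirt6mKO/mdx. It was 2.22-fold lower in mdx than in control, a log2 fold change of -1.15 (SE 0.30), and its mdx and Sirt6mKO/mdx libraries overlapped. The log2 fold change between the latter was 0.40, and it turned to -0.22 when libraries were scaled to equal totals. Hsf2, on chromosome 10 (57486385 to 57513133), encodes a factor that can form trimers with HSF1. It was at 103 and 142 in controls, 234 and 163 in mdx, then 121 and 209 in Sirt6mKO/mdx. It was the only one of the 10 genes with a higher level in mdx than in control, with a log2 fold change of 0.69 (SE 0.34), and its value against control in Sirt6mKO/mdx of 0.39 turned to -0.21 with equal totals. Per kb of exon, Hsf1 stood to Hsf2 at 3.73 and 2.65 in controls, 0.648 and 1.17 in mdx, then 2.27 and 0.881 in Sirt6mKO/mdx.

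In mdx against control the log2 fold changes of the 7 inducible genes had a median of -3.17, against 0.00 over all 15915 genes tested. All 7 passed the criteria of a call (limma adjusted p at most 0.05 and an absolute log2 fold change of at least 1), which 7.34% of tested genes passed on the lower side and 6.89% on the higher side. In all 7 both mdx libraries were below both control libraries, as were 28.3% of tested genes. Hspa8 and Hsf1 passed the criteria too, and Hsf2 did not. Hsf1 no longer passed them when any 1 control or mdx library was left out, with values from -1.32 to -0.99. The genes were chosen with this contrast known, so nothing is read from these counts.

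In Sirt6mKO/mdx against mdx the median of the 7 genes was 2.73, with a range from 1.67 to 3.70, against 0.02 over all genes. All 7 passed the criteria, against 5.62% of tested genes on the higher and 2.54% on the lower side, and in all 7 both Sirt6mKO/mdx libraries were above both mdx libraries, as in 28.8% of tested genes. Hspa8, Hsf1 and Hsf2 did not pass. With equal totals 5 of the 7 still passed and the median was 2.10, against 479 higher calls and a median of -0.58 over all 15915 genes. Without a minimum mean 3 of the 7 passed, against 154 of 22489 genes on the higher side. With 1 prior variance for all genes, in place of one that follows the level, 0 of 7 passed in limma. The same held for 0 of 15915 genes, of which 3156 had an unadjusted p under 0.05. Leaving out a mdx or a Sirt6mKO/mdx library left 3 or 4 of the 7, and Hspa1a and Hspa1b were lost each time. The mdx libraries on which the genes were chosen are part of this contrast, so nothing is read from these counts either.

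In Sirt6mKO/mdx against control the median was -0.66, with a range from -0.99 (Dnajb1) to -0.15 (Hspb1), against 0.01 over all genes. None of the 7 passed the criteria on either side, against 5.19% of tested genes on the higher and 2.68% on the lower side. In 6 of the 7, all but Hsp90aa1, both Sirt6mKO/mdx libraries were below both control libraries, as in 25.3% of tested genes. With equal totals the median was -1.27 and 3 of the 7 passed on the lower side, against a median of -0.58 and 2692 lower calls over all genes. The 3 comparisons share libraries, so their values are not independent of each other, and these counts too are a description of genes chosen from these libraries.

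**Figure D3:**
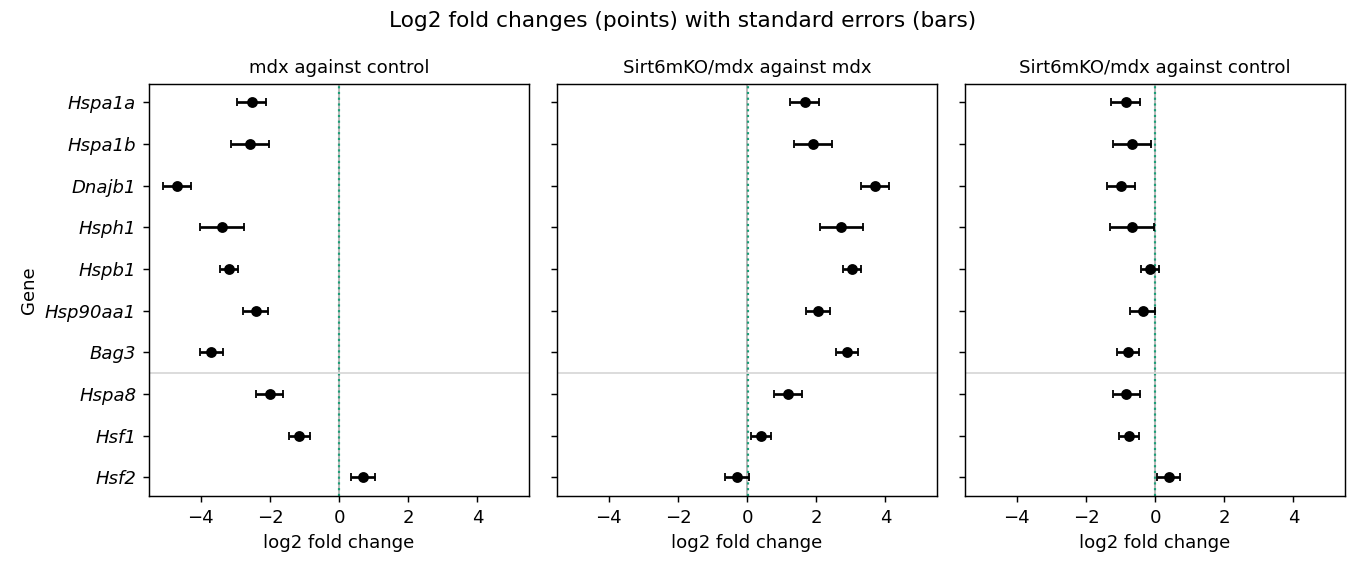
Log2 fold changes of the 10 genes (points) with standard errors of the limma fit (bars) in the 3 comparisons, with the median of all tested genes as a dotted line near 0. The inducible genes lie between -4.69 and -2.41 in mdx against control, between 1.67 and 3.70 in Sirt6mKO/mdx against mdx, and between -0.99 and -0.15 in Sirt6mKO/mdx against control.

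Outside the set, 82 of 88 other chaperone and co-chaperone genes were tested, grouped by family. In mdx against control 20 were lower and 6 higher, a share of 24.4% and 7.32% against the 7.34% and 6.89% of all genes given above, and the median log2 fold change was -0.28. In Sirt6mKO/mdx against mdx 11 were higher (13.4%) and 4 lower (4.88%), against 5.62% and 2.54% of all genes, with a median of -0.15. With equal totals 5 were higher and 27 lower, but so were 479 and 2932 of all 15915 genes, and nothing is read from these for chaperones. Against control 9 were lower (11.0%) and 1 was higher (1.22%) in Sirt6mKO/mdx, against 2.68% and 5.19% of all genes, with a median of -0.35. With equal totals 32 were lower, as were 2692 of all genes. Most members of these families thus did not pass in either direction.

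Among 37 DNAJ (HSP40) relatives, 7 were lower (18.9%) and 4 higher (10.8%) in mdx than in control (median -0.18), against 7.34% and 6.89% of all genes. Dnajb4, Dnaja4 and Dnaja1, co-chaperones of cytosolic HSP70 like Dnajb1, fell by 2.66, 2.46 and 2.12 on the log2 scale (limma adjusted p of 7.9e-06, 2.6e-05 and 8.6e-05). Dnajb4 was at 2955 and 3374 in controls, 482 and 516 in mdx, then 1955 and 2621 in Sirt6mKO/mdx. In Sirt6mKO/mdx against mdx, Dnajb4 and Dnaja1 rose by 2.18 and 2.01 (adjusted p of 0.00011 and 0.00028), and they kept their calls without any 1 library and with equal totals. Dnajb9, which works with HSPA5 in the endoplasmic reticulum, rose by 2.01 (adjusted p 0.00053) and was higher than in control by 0.84, which did not pass. Dnajc15, a mitochondrial DNAJ protein, went the other way in mdx, from 24 and 12 in controls to 139 and 85 in mdx, a rise of 2.61 (adjusted p 0.002) that was lost without mdx replicate 1 (2.25). Between Sirt6mKO/mdx and mdx, 5 members were higher in Sirt6mKO/mdx (13.5%) and 3 lower (8.11%), against 5.62% and 2.54% of all genes, with a median of -0.29. With equal totals 4 were higher and 14 lower, but so were 479 and 2932 of all 15915 genes. Among the 3 lower without this scaling was Dnajc9 at -1.72 (adjusted p 0.034). Its call was lost without Sirt6mKO/mdx replicate 1 (-1.0), mdx replicate 1 (-1.47) or mdx replicate 2 (-1.97).

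Of 11 HSP70 and HSP110 relatives, 4 were lower (36.4%, against 7.34% of all genes) and 0 higher in mdx (median -0.32). In Sirt6mKO/mdx against mdx 2 were higher (18.2%, against 5.62% of all genes) and 0 lower, with a median of -0.2. With equal totals 0 were higher and 4 lower, against 479 and 2932 of all 15915 genes. Hspa4l, an HSP110 relative of Hsph1, was at 1415 and 1652 in controls, 316 and 325 in mdx, then 789 and 666 in Sirt6mKO/mdx. It fell by 2.25 in mdx (adjusted p 1.7e-05) and rose by 1.18 in Sirt6mKO/mdx against mdx (adjusted p 0.007), the latter lost with equal totals (0.55) and without any 1 mdx or Sirt6mKO/mdx library. Hspa5, the HSP70 of the endoplasmic reticulum, fell by 2.20 (adjusted p 0.0012) and rose by 1.64 (adjusted p 0.016), the rise lost with equal totals (1.02) and without either library of mdx or of Sirt6mKO/mdx. Hspa9, the HSP70 of mitochondria, had log2 fold changes of -0.19 and -0.42 (adjusted p 0.65 and 0.3). Hspa12a and Hspa2 were lower in mdx too (-1.36 and -1.35). Leaving out 1 control library moved the values most, to -0.85 for Hspa12a without control replicate 2 and -0.87 for Hspa2 without control replicate 1. Both calls were also lost without mdx replicate 1 (-1.41 and -1.2) or mdx replicate 2 (-1.31 and -1.5), and that of Hspa2 without Sirt6mKO/mdx replicate 2.

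Of the small heat shock proteins, 6 of 8 were tested, and 3 of the 6 were lower (against 7.34% of all genes) and 0 higher in mdx (median -1.53). Cryab, which protects the contractile apparatus, was at 1887 and 3099 in controls, 518 and 632 in mdx, then 1363 and 1562 in Sirt6mKO/mdx, and fell by 2.08 in mdx (adjusted p 0.00015). Hspb7, a small heat shock protein of heart and skeletal muscle, fell by 2.25 (adjusted p 0.0032) and rose by 2.14 in Sirt6mKO/mdx (adjusted p 0.0084). Both calls were lost without mdx replicate 2, at -1.63 and 1.52, and the second also without either Sirt6mKO/mdx library. Hspb6 fell by 1.72, but by 0.93 without mdx replicate 2. Its call was also lost without control replicate 1 (-1.78), control replicate 2 (-1.66) or Sirt6mKO/mdx replicate 2. Hspb8, a partner of BAG3, had log2 fold changes of -0.67 and 0.95 that did not pass. Of the 8 myofibre markers, 4 were lower in mdx and 3 were higher in Sirt6mKO/mdx than in mdx, against 7.34% and 5.62% of all genes, with sums of 6632 to 8325 in control, 1262 to 4080 in mdx and 4329 to 9141 in Sirt6mKO/mdx. The part of myofibre RNA in the values of these genes was not tested.

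Of 17 HSP90 genes and co-chaperones, 6 were lower (35.3%) and 1 was higher (5.88%) in mdx (median -0.83), against 7.34% and 6.89% of all genes. Ahsa1, which activates the HSP90 ATPase, fell by 2.10 (adjusted p 3.4e-05), from 1216 and 1467 to 337 and 286. Unc45a, a co-chaperone for myosin folding, fell by 1.75 (adjusted p 0.00042) and rose by 1.6 in Sirt6mKO/mdx (adjusted p 0.0018), lost with equal totals (0.97) and without Sirt6mKO/mdx replicate 1 (1.34). Stip1, which hands clients from HSP70 to HSP90, fell by 1.72 (adjusted p 0.00028), and its value of 0.68 in Sirt6mKO/mdx against mdx did not pass. Hsp90ab1 fell by 1.48 (adjusted p 0.027), a call lost without control replicate 2 or any 1 library of the other groups. Hsp90b1, the HSP90 of the endoplasmic reticulum, had 1424 and 3209 in controls, 3292 and 2992 in mdx, then 1182 and 1465 in Sirt6mKO/mdx, a difference of -1.25 from mdx (adjusted p 0.033), lost without any 1 mdx or Sirt6mKO/mdx library. The 11 HSP70 co-chaperones had 1 member higher (9.09%) and 0 lower in mdx, against 6.89% and 7.34% of all genes. Their median was 0.44, with 7 log2 fold changes above 0 and 4 below. The member that passed was Bag1, higher by 1.36 (adjusted p 0.0036, lost without mdx replicate 1 at 1.17), while Bag3 of the same family was lower.

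Of 8 further members of the HSF family and regulators of HSF1, 0 passed in mdx against control. Of all genes, 7.34% passed on the lower and 6.89% on the higher side. In this comparison 4 of the 8 had an unadjusted p under 0.05 in limma, as did 4930 of 15915 genes tested. Crebbp and Ep300, acetyltransferases with the highest levels among them, had log2 fold changes of -0.89 (adjusted p 0.034, under the minimum fold) and -0.71 (adjusted p 0.056). Sirt1, a deacetylase that acts on HSF1, was 1.23 higher in Sirt6mKO/mdx than in mdx (adjusted p 0.023). It was the only 1 of the 8 to pass there (12.5%, against 5.62% of all genes on the higher side). Its value was 0.60 with equal totals, and its call was lost without any 1 mdx or Sirt6mKO/mdx library.

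A list of 20 further HSF1 targets, which overlaps the families above, had 15 genes lower and 1 higher in mdx (75.0% and 5.0%, against 7.34% and 6.89% of all genes, median -1.90). Set against mdx, 9 were higher and 0 lower in Sirt6mKO/mdx, against 5.62% and 2.54% of all genes, with a median of 0.90. With equal totals these counts were 5 higher and 2 lower, with a median of 0.28. Over all 15915 genes they were 479 and 2932, with a median of -0.58. Hspe1 and Hspd1, the mitochondrial chaperonin genes that share a promoter region, had log2 fold changes of -2.39 and -2.59 in mdx (adjusted p of 2.1e-05 and 1.2e-05). In Sirt6mKO/mdx against mdx they rose by 2.23 and 1.48 (adjusted p of 8.5e-05 and 0.003), the rise of Hspd1 being lost with equal totals (0.85) and without either Sirt6mKO/mdx library. Ubb, a ubiquitin gene, was at 3156 and 5134 in controls, 717 and 412 in mdx, then 994 and 976 in Sirt6mKO/mdx, and fell by 2.89 in mdx (adjusted p 1.8e-05). In Sirt6mKO/mdx it was at 23.8% of control, against 49.6% to 90.0% for the inducible chaperones. Its log2 fold change against control of -2.03 passed, but not without Sirt6mKO/mdx replicate 2 (-2.02). Ier5, a regulator of HSF1, was at 580 and 1035 in Sirt6mKO/mdx against 149 and 121 in mdx, a rise of 2.52 (adjusted p 0.00058) that was 2.10 and lost without Sirt6mKO/mdx replicate 2. Serpinh1, the collagen chaperone of the endoplasmic reticulum, had log2 fold changes of -0.35 and -0.39 that did not pass.

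**Figure D4:**
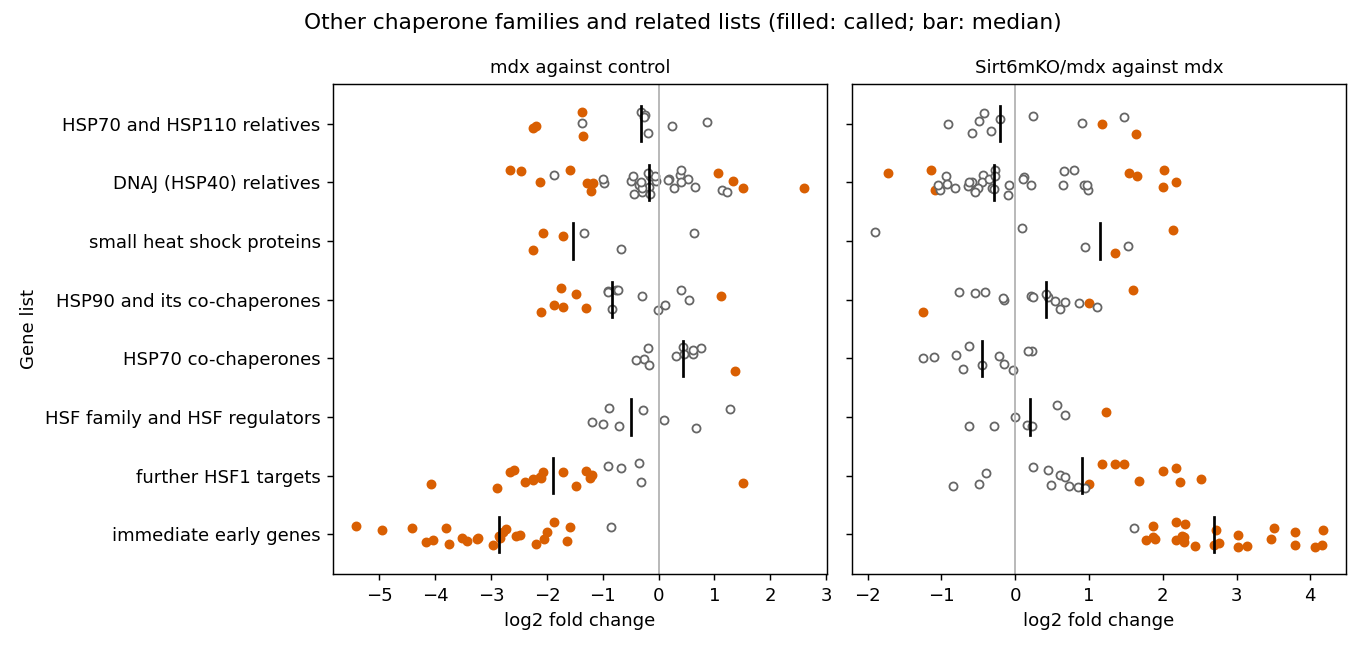
Log2 fold changes of the tested genes of 5 chaperone families and 3 related lists in 2 comparisons, with 1 point per gene, filled where called, and a bar at the median. Called points of the further HSF1 targets and immediate early genes lie almost all at negative values in mdx against control and all at positive values in Sirt6mKO/mdx against mdx, while the DNAJ relatives lie on both sides.

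Immediate early genes, which answer to enzymatic dissociation as well as to other stimuli, moved with the chaperones. Of 25, 24 were lower in mdx than in control (96.0%, against 7.34% of all genes, median -2.85), and 24 were higher in Sirt6mKO/mdx than in mdx (96.0%, against 5.62% of all genes, median 2.70). Against control 3 were lower in Sirt6mKO/mdx (against 2.68% of all genes, median -0.21). Their summed values were 94759 and 99252 in controls, 12845 and 14741 in mdx, then 80921 and 85763 in Sirt6mKO/mdx. Among the most abundant, Fos fell by 2.83 in mdx (adjusted p 7.1e-05) and rose by 2.44 in Sirt6mKO/mdx (adjusted p 0.00052), and Fosb fell by 3.81 and rose by 3.50 (adjusted p 1.6e-06 and 7.1e-06). Egr1 fell by 2.20 (adjusted p 0.0017) and rose by 2.31 (adjusted p 0.0024), a rise whose call was lost without either Sirt6mKO/mdx library. The part of dissociation in the chaperone levels was not tested.

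Of 6015 genes with a mean of 50 or more and a range of at least 1 on the log2 scale, those most alike to the mean profile of the 7 inducible chaperones over the 6 libraries were Nr4a1 (Pearson r 0.998), Vegfa (0.996), Mafk (0.996), Dusp8 (0.995) and Atf3 (0.995). Nr4a1 and Atf3 also belong to the immediate early list. Nr4a1, a nuclear receptor, was at 5322 and 6521 in controls, 163 and 219 in mdx, then 3436 and 3416 in Sirt6mKO/mdx. Vegfa, which encodes a growth factor for vessels, was at 873 and 975, 169 and 225, and 599 and 635. These correlations are over 6 libraries that share 3 group levels and are a description.

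Markers of other cells differed between the groups in part, although the sort depleted Sca1+, CD45+ and CD31+ cells. Endothelial markers summed to 752 to 905 in control, 401 to 407 in mdx and 608 to 622 in Sirt6mKO/mdx, with 2 of 4 tested genes lower in mdx, against 7.34% of all genes. Fibro-adipogenic markers summed to 18184 to 25059, 29787 to 35506 and 19251 to 26768, with 2 of 6 higher in mdx, against 6.89% of all genes, and 1 lower in Sirt6mKO/mdx than in mdx, against 2.54%. Col3a1 made up most of each sum, at 16458 and 22798 in controls, 30817 and 26928 in mdx, then 15579 and 24533 in Sirt6mKO/mdx. Col1a1 was at 634 and 862, 2013 and 1898, then 1136 and 747. Pdgfra was at 15 and 59, 195 and 18, then 142 and 19, and Ly6a at 3 and 9, 79 and 21, then 65 and 15. In mdx and Sirt6mKO/mdx, Pdgfra and Ly6a thus differed widely between libraries of a group. Leukocyte markers summed to 106 to 111, 64 to 95 and 146 to 169, with 1 of 4 higher and 1 lower in mdx, against 6.89% and 7.34% of all genes. Smooth muscle and pericyte markers summed to 1709 to 2857, 3614 to 3650 and 1598 to 2211, with 1 of 6 higher and 1 lower in mdx, against the same 6.89% and 7.34%. No marker found in the table was at 0 in all libraries, and 2 leukocyte markers, Adgre1 and Cd3e, were not analysed here. The part of other cells in the chaperone values was not tested.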

How the data were processed

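RNA-seq values of MuSCs were analysed for 3 groups of 2 libraries, assigned by their labels. Per the methods and the submitters' processing notes, the authors used Reaper for trimming, STAR for alignment to mm10 and featureCounts 1.4.5-p1 for read counts per gene, without reads of several places, and DESeq2 1.6.0 for normalization. The deposited values are such normalized counts rounded to whole numbers, a unit treated here as a score and not as raw counts. Size factors were recovered from the skipped and doubled whole numbers (0.537 to 1.527) and give approximate reads. Depth limits the precision of genes with low values.

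Values were tested with limma 3.58.1 in R 4.3.3 on log2(value + 1). The prior variance followed the mean, with all 6 libraries in 1 fit and no block. A fold change on this scale understates low genes, and an SE borrows from genes of like level. Genes whose mean was 5 or more (15915 of 22706) were tested, and called at a Benjamini-Hochberg adjusted p of at most 0.05 (two-sided) and an absolute log2 fold change of at least 1. All adjusted p-values are from limma. The fit was tested on simulated data with known changes. It did not call all of these, so a gene that did not pass may still differ. The labels do not say that the libraries came from separate mice, while the methods give biological replicates, so p-values measure the spread between these libraries.

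The members and all lists were chosen with earlier results of these data known, and the lists and calls support no other result. Named genes were the 10 members, in each list up to 4 called genes per comparison with a mean of at least 50 and the largest change and the 2 with the highest mean, the 3 most abundant immediate early genes, the 5 most alike genes and genes overlapping a member. A few that the rule gave are left to the counts. 1 gene given by the rule is not reported here. Of the gene identifiers, 98.5% were in GENCODE M21, which gave lengths and coordinates. Promoters came from RefSeq (GRCm38.p6).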

Additional observations from a re-analysis of the deposited data

How the results depend on the processing

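With 2 libraries per group, values of single genes rest on few libraries. The medians of the inducible chaperones kept their sign under every alternative. Without 1 library they ran from -3.36 to -2.85 (mdx against control), 2.20 to 3.21 (Sirt6mKO/mdx against mdx) and -0.90 to -0.52 (Sirt6mKO/mdx against control). Scaling to equal totals moved the second to 2.10 and the last to -1.27, and shifted the median of all genes to -0.58 in both, with 479 higher and 2932 lower calls against 895 and 405 for Sirt6mKO/mdx against mdx, and 455 and 2692 against 826 and 427 for Sirt6mKO/mdx against control.

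Calls over all genes numbered 2265, 1300 and 1253 in these comparisons. Without a minimum mean they were 989, 168 and 221, and with 1 prior variance 541, 0 and 87, where 3156 genes still had an unadjusted p under 0.05 in the second. Equal totals gave 3411 and 3147 in the last 2, and only the libraries compared gave 829 in the last. Without 1 library the ranges were 921 to 2326, 252 to 1541 and 212 to 1416. Other chaperone genes called numbered 26, 15 and 10. They were 16, 2 and 1 without a minimum mean, 10, 0 and 0 with 1 prior variance, 32 and 33 in the last 2 with equal totals, 6 in the last with only the libraries compared, and 13 to 26, 4 to 17 and 0 to 16 without 1 library. The causes were not tested.

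The same replicate number does not pair libraries here (correlations of deviations -0.128, 0.119 and 0.009). With the replicate number as a block, 2415, 1510 and 1404 genes were called, and 7, 7 and 0 of the inducible chaperones.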
